A study of Mus musculus with 35 samples.

Results

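Neutrophils store their antimicrobial and tissue-degrading proteins in granules that are filled in a fixed order while the cell matures. Primary (azurophil) granules take the proteins made at the promyelocyte stage, secondary (specific) granules those of the myelocyte stage and tertiary (gelatinase) granules those of later stages, so that mature neutrophils carry the proteins of all 3 classes while the transcripts of the earliest class are already low. The genes described here are 10 granule protein genes of these 3 classes, among 53379 gene identifiers counted. They were chosen by name, not by their values. The primary class holds 4 genes, Mpo (myeloperoxidase), Elane (neutrophil elastase), Prtn3 (proteinase 3) and Ctsg (cathepsin G). The secondary class holds 4 genes, Ltf (the iron-binding lactotransferrin), Camp (the cathelicidin precursor), Ngp (neutrophilic granule protein) and Lcn2 (lipocalin 2, which binds bacterial siderophores). The tertiary class holds 2 genes, Mmp8 (neutrophil collagenase) and Mmp9 (gelatinase B). Mmp8 protein is also found in specific granules, and Lcn2 is also made by other cells than neutrophils.

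The RNA came from C57BL6 mice with orthotopic pancreatic tumors grown from T110299, a line from a genetically engineered mouse with pancreatic cancer, in which Ptf1a-Cre drives recombination. Treated mice received poly(I:C)c, that is poly(I:C), a synthetic double-stranded RNA, complexed with the carrier PEI, intravenously on days 18 and 20 after tumor induction, with 50 µg poly(I:C) per dose. The other mice are labelled untreated, and the design text gives glucose as their control treatment. Myeloid-derived suppressor cells (MDSC) were enriched for CD11b and sorted from spleen and tumor as PMN-MDSC (Ly6C low, Ly6G positive) and M-MDSC (Ly6C high, Ly6G negative), which gives 8 groups, and 4 bulk tumors of untreated mice were sequenced too. Of 35 libraries, 34 were used; 1 library of M-MDSC from treated tumors held 10 counts and was left out, which leaves 3 there and 3 for splenic PMN-MDSC of treated mice, with 4 in every other group. The 30 MDSC libraries held 793070 to 4357105 counts. Levels are given as counts scaled to the library total (CPM), or also to the exon length (FPKM) where genes are compared with each other. Fold changes came from edgeR quasi-likelihood tests on the counts, with a gene called at a Benjamini-Hochberg adjusted p under 0.05 over all genes tested. In RNA pooled from many cells, fewer cells of a type and less RNA per cell cannot be told apart. Libraries of the same mice, from spleen and tumor and from both sorted populations, entered the tests as independent samples.

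The sorted libraries were checked against markers before the granule genes were read. In untreated spleen, Ly6g RNA was at 34.5 to 84.7 CPM in PMN-MDSC and at 0.464 to 4.28 CPM in M-MDSC, in the order of the sort. PMN-MDSC from untreated tumors held Ly6g at 0 to 9.19 CPM, hardly above M-MDSC of spleen, while their 6 macrophage markers (C1qa, C1qb, C1qc, Adgre1, Apoe, Mrc1) summed to 9749 to 13299 CPM, against 415 to 1303 CPM in splenic PMN-MDSC and 3369 to 8319 CPM in M-MDSC from untreated tumors. None of these 6 markers was at 0 in a tumor MDSC group. The part of these cells in the values from tumor was not tested. Replicate 2 of the M-MDSC from treated tumors stood apart, with macrophage markers at 28604 CPM and Ltf, Camp, Ngp, Mpo and Elane all at 0 counts. Markers of basophils and mast cells, which also carry serine proteases, summed to at most 2.43 CPM in any MDSC library.

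Promoters are shown to set the classes side by side in sequence. RefSeq promoter windows (GRCm38.p6) were held for 9 of the 10 genes, all but Mmp9. The 120 bases before the start are shown for 5 genes, with matches to GAGGAA (the letters bound by PU.1, a factor of myeloid cells) and TTNNGCAA (the letters bound by C/EBP factors, which act in granule gene expression) in capitals on either strand. Elane and Prtn3 stand for the primary class, Ltf and Ngp for the secondary class and Mmp8 for the tertiary class. The windows are chr10:79886192-79886311 (+) for Elane, chr10:79879547-79879666 (+) for Prtn3, chr9:111019172-111019291 (+) for Ltf, chr9:110419688-110419807 (+) for Ngp and chr9:7558309-7558428 (+) for Mmp8.
Elane: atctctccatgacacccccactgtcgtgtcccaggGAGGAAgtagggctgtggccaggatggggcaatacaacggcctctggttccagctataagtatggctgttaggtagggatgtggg
Prtn3: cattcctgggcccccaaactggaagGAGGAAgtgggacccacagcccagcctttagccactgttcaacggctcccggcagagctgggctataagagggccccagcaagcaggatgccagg
Ltf: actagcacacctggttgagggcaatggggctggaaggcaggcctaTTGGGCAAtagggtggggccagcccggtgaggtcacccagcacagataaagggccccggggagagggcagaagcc
Ngp: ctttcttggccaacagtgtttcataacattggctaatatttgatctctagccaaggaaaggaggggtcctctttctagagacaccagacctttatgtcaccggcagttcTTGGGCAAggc
Mmp8: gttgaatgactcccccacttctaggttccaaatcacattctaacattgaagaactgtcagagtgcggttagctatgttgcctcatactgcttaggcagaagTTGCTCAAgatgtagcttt

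Within the 250 bases before the start, GAGGAA stood in all 4 primary genes and in Ltf, Lcn2 and Mmp8, that is in 7 of 9 windows, against 23.3% of 32851 promoters of the same length. TTNNGCAA stood in Ltf, Ngp, Lcn2 and Mmp8, in 4 of 9 windows and in none of the primary genes, against 9.6% of all promoters. Ltf and Ngp share the same 8 letters. TGTGGT, the letters of RUNX factors, stood only in Ctsg (14% of all promoters), and the interferon response motif, a pair of GAAA repeats, in 0 of 9 (3.0% of all promoters). A match describes letters and is no binding site. The genes of a class also lie near each other in part: by the GENCODE gene boundaries, which differ from the RefSeq starts of the windows above, Elane and Prtn3 begin 11.8 kb apart on chromosome 10, and the annotated positions of Camp, Ngp and Ltf span 1171.9 kb on chromosome 9.

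The classes differed first in level. In splenic PMN-MDSC of untreated mice the 10 genes together took 1.82% ± 0.70 (SD, n = 4) of all counts, and of these counts the 4 secondary genes held 73.5 to 88.1% and the 4 primary genes at most 0.022%. Per length, Ngp was the highest there at 4938 ± 2409 FPKM (SD, n = 4), followed by Ltf at 1908 ± 869 FPKM and Camp at 895 ± 397 FPKM. Mmp9 (675 ± 124 FPKM) and Lcn2 (655 ± 262 FPKM) did not differ beyond their spread, and Mmp8 stood at 330.1 ± 91.2 FPKM. The primary genes were at 0.369 ± 0.438 FPKM or below. Bulk tumor held next to none of these transcripts, with all 10 genes at 0.0023% of counts (n = 4), and there Lcn2 was the highest by CPM at 5.02 to 29.1 CPM.

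**Figure D1:**
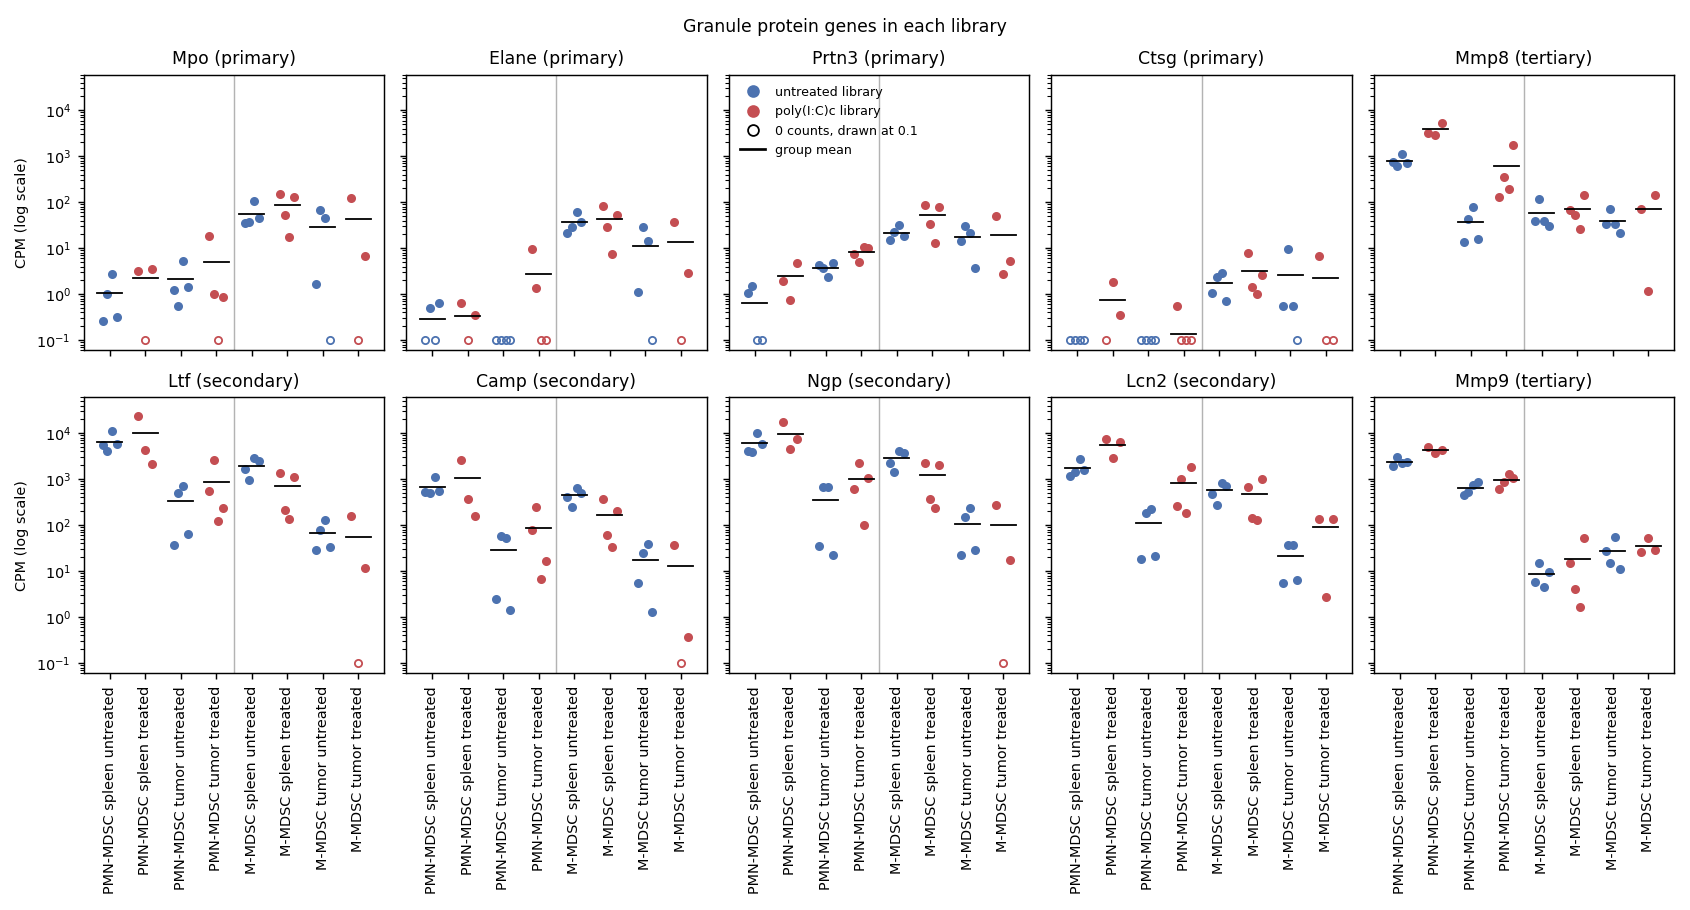
Level of each of the 10 genes in CPM on a log axis, with 1 point for each library in the 8 MDSC groups (untreated in blue, poly(I:C)c in red), the group mean as a bar and libraries without a count as open points drawn at 0.1. In spleen, Mpo, Elane and Prtn3 sit higher in M-MDSC, right of the grey line, while in tumor the populations overlap for Mpo and Prtn3. The 4 secondary genes are high in both splenic populations and Mmp9 is higher in PMN-MDSC of both compartments.

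Likeness across the 8 MDSC groups followed the classes in part. The mean absolute difference between the centred log2(CPM + 1) group means of Ltf and Ngp was 0.28, and the pair most unlike within the class, Camp and Lcn2, differed by 1.13. In the primary class, Mpo and Elane differed by 0.26 and the most unlike pair, Elane and Ctsg, by 1.09. Mmp8 and Mmp9 differed by 1.64, more than Mmp8 differed from Lcn2 (0.95). Lcn2 lay nearest to Ngp (0.87), then to Mmp8, and farther from Ltf (1.03). Outside the 10 genes, among 8524 candidates, the primary pattern was matched most closely by Hpse (heparanase, 0.23), Pot1b (0.42) and Mfsd7a (0.43), the secondary pattern by Itgb2l (0.50), 4930438A08Rik (0.60) and Wfdc21 (0.78), and the tertiary pattern by Stfa2l1 (0.39), Steap4 (0.46) and Dhrs9 (0.48). These are descriptions over 8 group means, which come in part from the same mice.

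**Figure D2:**
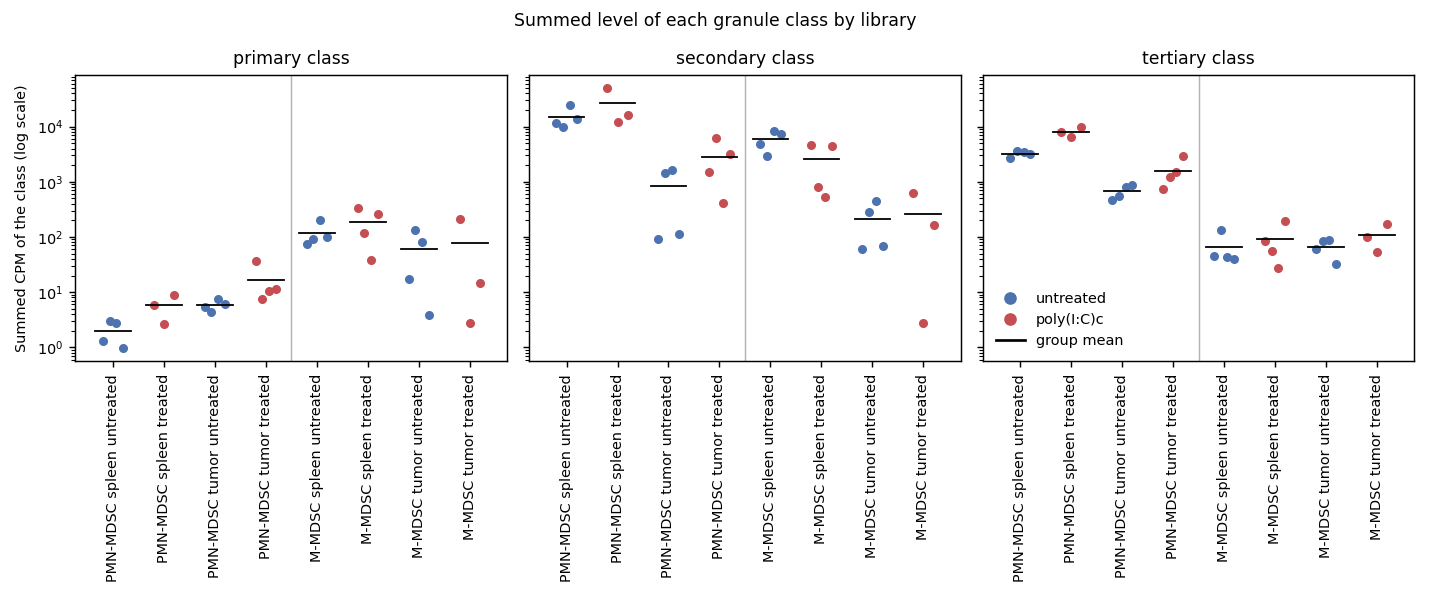
Summed CPM of the genes of each granule class, on a log axis, with 1 point for each library and the group mean as a bar. The primary class is lowest in splenic PMN-MDSC of untreated mice (0.963 to 2.99 CPM) and the secondary class reaches 50843 CPM in replicate 1 of splenic PMN-MDSC from treated mice, whose other libraries (12044 and 16032 CPM) lie within the untreated range of 9891 to 25065 CPM.

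PMN-MDSC and M-MDSC were compared within each compartment and treatment, to see which population carries which class. In untreated spleen the classes split by population: 3 primary genes were lower in PMN-MDSC, and all 4 secondary and both tertiary genes were higher. All 9 genes tested were called, though the 3 primary genes passed the filter on low counts only through the M-MDSC and Mmp9 only through the PMN-MDSC. Of all 8579 genes tested, 64.4% were called in either direction (30.9% higher, 33.4% lower in PMN-MDSC). The groups did not overlap for all 9, against 59.2% of genes, and Ctsg was too low to be tested.

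Mpo, the peroxidase that makes hypochlorous acid, was at 0.265, 0.996, 2.71 and 0.321 CPM in splenic PMN-MDSC of untreated mice and at 35.9, 38.1, 106 and 45.7 CPM in their M-MDSC. The groups did not overlap and Mpo was 40.9-fold lower in PMN-MDSC (log2 fold change -5.35 ± 0.62 (SE), edgeR adjusted p = 7.25e-05). Elane, a serine protease, had 0, 1, 0 and 2 counts in the 4 PMN-MDSC libraries and 41 to 154 counts in the M-MDSC libraries. The pooled counts of 402 against 3 give a ratio of 149 with an exact 95% interval of 50.5 to 725, which covers counting error only. Prtn3, a related protease, was at 0 to 1.49 CPM in PMN-MDSC against 15.3 to 31.5 CPM in M-MDSC, 26.9-fold lower (adjusted p = 0.000129). With 12, 3 and 7 counts over the PMN-MDSC libraries, Mpo, Elane and Prtn3 passed the filter of 25 counts on average only through the M-MDSC libraries, so their calls were fixed in part and are no support. Ctsg had 0 counts in all 4 PMN-MDSC libraries and 17 in the 4 M-MDSC libraries, at least 6.29-fold more with 3 counts over the group as the limit that a count of 0 allows.

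The secondary genes were higher in PMN-MDSC by a few fold. Ltf was at 5593, 4068, 10936 and 5732 CPM in PMN-MDSC and at 1697, 948, 2817 and 2465 CPM in M-MDSC of untreated spleen, with no overlap and a 4.34-fold difference (log2 2.12 ± 0.38, adjusted p = 0.001). Lcn2 was 3.97-fold higher (adjusted p = 0.00102), Ngp 2.73-fold (adjusted p = 0.00878) and Camp 1.94-fold (adjusted p = 0.0279). Without the filter on low counts, Ngp was not called (adjusted p = 0.077). The call of Camp rested on single libraries, with an adjusted p of 0.0646 without replicate 1, 0.0673 without replicate 2 and 0.0672 without replicate 4 of the M-MDSC, and 0.0689 without replicate 3 of the PMN-MDSC. With all 8 groups in 1 fit, none of the 4 secondary genes was called (adjusted p 0.0546 to 0.435), while the 5 other genes were.

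Both tertiary genes were higher in PMN-MDSC, Mmp9 by more than any other of the 9 genes tested. Mmp9, which cleaves type IV collagen and gelatin, was at 1907, 2964, 2281 and 2401 CPM in PMN-MDSC and at 5.80, 14.9, 4.55 and 9.76 CPM in M-MDSC, a 352.6-fold difference (log2 8.46 ± 0.41, adjusted p = 9.68e-07). With 95 counts over the 4 M-MDSC libraries, just under the filter of 25 on average, Mmp9 was tested through the PMN-MDSC, where it is high, so its call was fixed in part and is no support. Mmp8, which cleaves fibrillar collagen, was at 604 to 1118 CPM against 29.99 to 120.3 CPM, 18.1-fold higher (adjusted p = 6.61e-05). Set against the PMN-MDSC mean, the M-MDSC of untreated spleen thus held Mmp9 at 0.366%, Ly6g at 4.34%, the G-CSF receptor gene Csf3r at 5.61% and Mmp8 at 7.15%, but Ltf at 30.1%, Lcn2 at 33.0%, Ngp at 48.0% and Camp at 67.3%. The summed primary genes stood at 117 CPM in these M-MDSC, above the tertiary genes at 66.0 CPM, whereas in PMN-MDSC the tertiary genes stood at 3188 CPM and the primary genes at 1.997 CPM. Neutrophil markers differed in this share. Retnlg stood at 2.08% of the PMN-MDSC mean, and S100a9 averaged 1177 CPM in these M-MDSC against 5771 CPM in PMN-MDSC. The part of sorted-in PMN-MDSC, which such genes mark, in the secondary levels of the M-MDSC was not tested.

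Under poly(I:C)c the same split was seen in spleen, with 3 primary genes lower and 6 secondary and tertiary genes higher in PMN-MDSC (all 9 tested; 61.2% of 8153 genes called, 28.8% higher and 32.4% lower; 8 of the 9 without overlap, against 63.2% of genes). Ltf was 20.6-fold higher (adjusted p = 0.00856), Lcn2 16.7-fold (adjusted p = 0.00249), Ngp 11.7-fold (adjusted p = 0.0079), Mmp8 78.8-fold (adjusted p = 0.000118) and Mmp9 357-fold (adjusted p = 0.000444). Camp was 9.14-fold higher (adjusted p = 0.0315), its groups overlapped, and the adjusted p was 0.207 without replicate 1 of the PMN-MDSC, 0.0816 and 0.0618 without replicates 2 and 3 of the M-MDSC and 0.0557 without replicate 4. Without the filter on low counts, Ltf (adjusted p = 0.0637), Camp (0.159) and Ngp (0.0583) were not called. Mpo was 27.04-fold lower (adjusted p = 0.00445), Prtn3 14.2-fold lower (adjusted p = 0.00457), and Elane had 2 counts in the 3 PMN-MDSC libraries against 444 in the 4 M-MDSC libraries, a ratio of 139 (exact interval 38.4 to 1160.0). Mpo with 15 and Prtn3 with 18 counts in the PMN-MDSC libraries also passed the filter only through the M-MDSC, where they are high.

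In tumor, Mmp9 was the only one of these genes to pass the test between the populations. In untreated tumors 1 of 7 genes tested was called (13% of 7623 genes; 7.25% higher), namely Mmp9 at 445, 517, 739.7 and 862 CPM in PMN-MDSC against 26.9, 14.8, 54.4 and 11.3 CPM in M-MDSC, 22.8-fold higher with no overlap (19.7% of genes; adjusted p = 0.000176). Mmp8 was at 37.5 ± 30.5 CPM in PMN-MDSC and 39.9 ± 21.4 CPM in M-MDSC (SD, n = 4 each; log2 -0.04 ± 0.58). Ltf (4.94-fold), Lcn2 (4.92-fold), Ngp (3.33-fold) and Camp (1.54-fold) did not pass the test (adjusted p 0.224 to 0.789), and neither did Mpo (12.3-fold lower, adjusted p = 0.124). Elane had 0 counts in all 4 PMN-MDSC libraries and 96 in the M-MDSC libraries, at least 33.7-fold more. In treated tumors Mmp9 was again the only call of 8 genes tested, in a comparison with 0.369% of 8955 genes called, all of them higher (29.7-fold higher, adjusted p = 0.0112). That call was lost without replicate 1 (adjusted p = 0.0882) or replicate 3 (0.0634) of the M-MDSC or replicate 3 of the PMN-MDSC (0.0563).

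**Figure D3:**
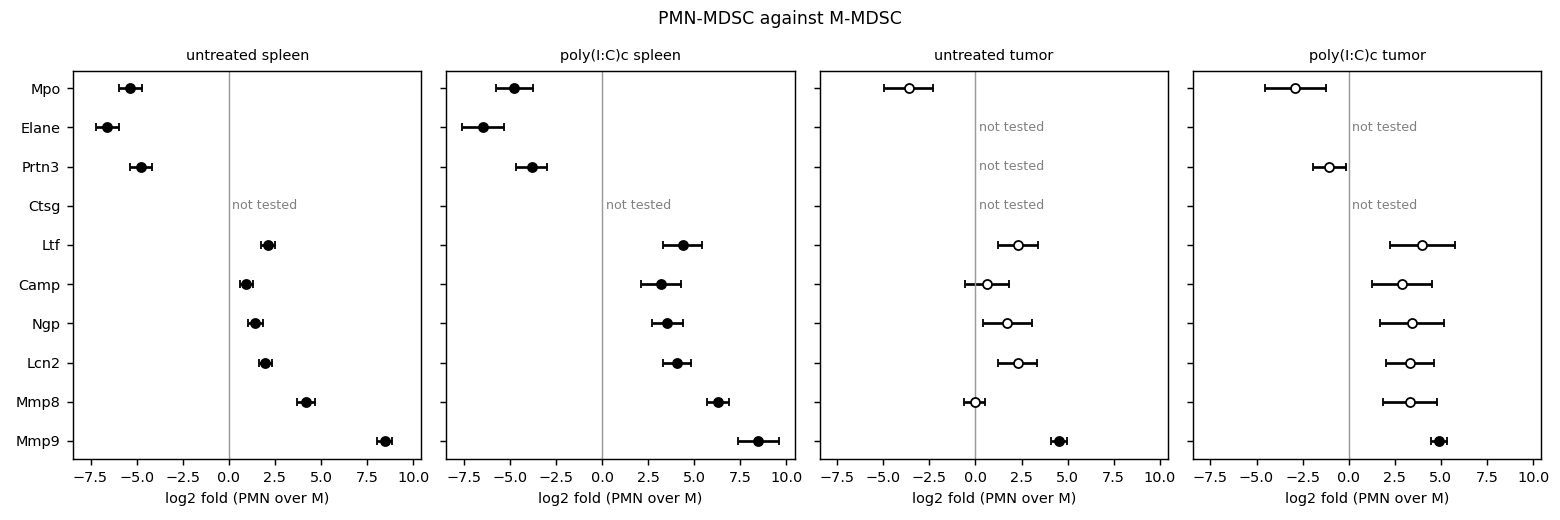
Log2 fold change of PMN-MDSC over M-MDSC for each gene (x axis; bars are standard errors) in untreated spleen, treated spleen, untreated tumor and treated tumor. Filled points passed an adjusted p of 0.05; in spleen the primary genes lie left of 0 and the others right of it, and in tumor only Mmp9 is filled. The points of Elane rest on 2 or 3 counts in PMN-MDSC.

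Tumor and spleen were compared to see how the granule genes change with the compartment. PMN-MDSC from untreated tumors held less of all 6 secondary and tertiary genes than those from spleen. All 6 genes tested were called lower with no overlap, where 59.1% of 7971 genes were called (29.7% lower) and 55.1% did not overlap, and the median log2 fold change of the 6 genes was -4.33 against 0.01 over all genes tested. The 4 primary genes were too low to be tested, with 0 to 4.63 counts per library on average. Their summed level did not fall, at 4.33 to 7.59 CPM in tumor against 0.963 to 2.99 CPM in spleen, and Prtn3 was at 2.40 to 4.74 CPM against 0 to 1.49 CPM.

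Ltf fell from 4068 to 10936 CPM in spleen to 37.0, 511, 709 and 65.4 CPM in tumor, 21.6-fold lower (log2 -4.44 ± 0.88, adjusted p = 0.00161). The tumor libraries formed a low pair, replicates 1 and 4, and a high pair, replicates 2 and 3, and the same pairs were low and high in Camp (2.43 and 1.42 against 58.5 and 53.5 CPM), Ngp (35.2 and 22.8 against 679 and 669.8 CPM), Lcn2 (18.2 and 21.8 against 179 and 222 CPM) and Mmp8 (13.3 and 15.7 against 42.3 and 78.7 CPM). Mmp9 did not follow these pairs, at 445, 517, 739.7 and 862 CPM in replicates 1 to 4. Camp was 25.3-fold lower than in spleen (adjusted p = 0.00403), Ngp 18.6-fold (adjusted p = 0.00869; 0.0789 without the filter on low counts), Lcn2 17.04-fold (adjusted p = 0.00177) and Mmp8 23.1-fold (adjusted p = 6.04e-05). Mmp9 fell by less, 4.16-fold (log2 -2.06 ± 0.28, adjusted p = 0.000162). No test was run between genes. The macrophage markers were above the splenic level in these tumor libraries. The 8 mature neutrophil markers summed to 6750 to 11897 CPM in tumor against 13182 to 23243 CPM in spleen, with 6 of 8 lower and 1 higher, Il1b, which alone held 7593 CPM on average in tumor. Of the splenic mean, Ly6g stood at 5.33%, Retnlg at 7.73%, Csf3r at 20.3%, Mmp9 at 26.8% and the secondary genes at 4.27 to 6.42%. The part of these markers in the folds was not tested.

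In treated mice the same 6 genes were lower in tumor PMN-MDSC (53.6% of 8031 genes called, 25.4% lower), 5 of them without overlap (56.5% of genes), by 16.2-fold for Camp, 15.8-fold for Ltf, 13.0-fold for Ngp, 8.60-fold for Lcn2, 7.72-fold for Mmp8 and 5.88-fold for Mmp9 (adjusted p 0.00058 to 0.0253). Macrophage markers summed to 7297 to 18599 CPM in these tumor libraries against 65.2 to 176 CPM in the splenic ones, and their part in the folds was not tested. Ltf was at 552, 2573, 121 and 232 CPM in tumor against 23369, 4373 and 2118 CPM in spleen, with replicate 2 of the tumor above the lowest splenic library in CPM, though not after TMM scaling. Camp overlapped on both scales. Leaving out replicate 1 of the splenic PMN-MDSC ended the calls of Ltf (adjusted p = 0.0716) and Camp (0.123), and so did leaving out replicate 1 of the tumor PMN-MDSC (0.0604 and 0.0714). Mmp8 was lost without replicate 2 (0.06) or replicate 3 (0.051) of the tumor or replicate 3 of the spleen (0.0567), and Camp without replicate 4 of the tumor (0.0536). Without the filter on low counts only Mmp9 was called.

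M-MDSC from untreated tumors held less of all 4 secondary genes than those from spleen. In the same libraries, macrophage markers summed to 3369 to 8319 CPM in tumor against 807 to 1052 CPM in spleen. Mature neutrophil markers summed to 3987 to 6836 CPM against 1407 to 2724 CPM, but the members of that list did not move together. Of the splenic mean, Ly6g stood at 8.64%, Retnlg at 36.2% and Csf3r at 53.1%, while the sum was higher. S100a9 averaged 57.3 CPM in tumor against 1177 CPM in spleen. The part of all these markers in the result was not tested. Ltf was at 28.6, 76.8, 132 and 32.8 CPM in tumor against 948 to 2817 CPM in spleen, 23.7-fold lower (log2 -4.57 ± 0.54, adjusted p = 0.000221). Ngp was 21.98-fold lower (adjusted p = 0.00438), Lcn2 20.1-fold (adjusted p = 0.00069) and Camp 18.6-fold (adjusted p = 0.00098), with no overlap in any of the 4 (31.2% of genes). Mmp8 did not pass the test, at 39.9 ± 21.4 CPM in tumor and 57.2 ± 42.3 CPM in spleen (SD, n = 4 each; log2 -0.24 ± 0.50 (SE)). Mmp9 was 3.90-fold higher in tumor (adjusted p = 0.00944), an increase that rested on replicate 3 of the tumor (adjusted p = 0.0513 without it). With 95 counts over the splenic libraries, under the filter on average, and 276 over those of tumor, Mmp9 was tested through the tumor, where it is high. Of 9 genes tested, 4 were thus lower and 1 higher, with 12.7% and 15.7% of 8298 genes called in those directions (28.4% in either). Mpo at 1.65, 67.4, 44.4 and 0 CPM, Elane at 1.10, 28.98, 14.1 and 0 CPM and Prtn3 at 14.3, 30.3, 21.4 and 3.78 CPM in tumor ran from near 0 to the splenic level between replicates, with replicates 1 and 4 low, and none was called (adjusted p 0.183 to 0.992). Without replicate 2 of the tumor, Elane was called lower (adjusted p = 0.0414), with 2, 51 and 0 counts left in tumor, so that it passed the filter only through the spleen.

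In treated mice 0 of 9 genes were called between tumor and spleen M-MDSC by edgeR and 0 by DESeq2 (5.97% of 9026 genes called by edgeR), and 1 had an unadjusted p under 0.05, Camp at 12.7-fold lower. Ltf was at 157, 0 and 11.4 CPM in tumor against 138 to 1342 CPM in spleen, 11.8-fold lower on average (adjusted p = 0.24). Leaving out replicate 1 of the tumor, the library with most of these transcripts, gave 1 call, Camp (adjusted p = 0.025), which then had 0 and 1 counts in tumor and passed the filter only through the spleen.

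**Figure D4:**
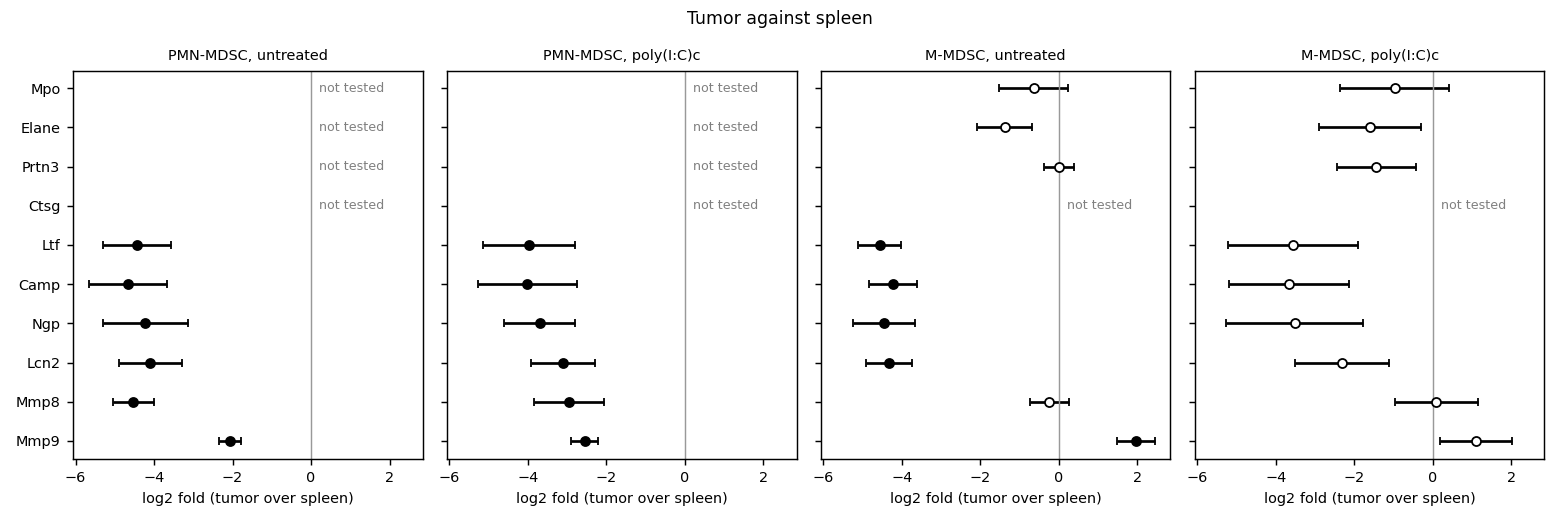
Log2 fold change of tumor over spleen for each gene (x axis; bars are standard errors) in PMN-MDSC and M-MDSC of untreated and treated mice, with filled points past an adjusted p of 0.05. The 4 secondary genes lie near -4 in both populations of untreated mice, whereas Mmp8 is near -4.53 in PMN-MDSC and near 0 in M-MDSC.

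Treatment with poly(I:C)c was compared with untreated mice in each sorted population. In splenic PMN-MDSC, Lcn2 and both tertiary genes rose, and Ltf, Camp and Ngp did not pass the test. Macrophage markers summed to 65.2 to 176 CPM in these treated libraries against 415 to 1303 CPM in untreated ones, dendritic cell markers to 7.92 to 58.7 against 251 to 403 CPM and erythroid markers to 0.36 to 7.04 against 58.6 to 172 CPM, and their part in the result was not tested. The 3 calls stand among 6 genes tested, where 11.6% of 7261 genes were called (6.1% higher), and the median log2 fold change of the 6 was 1.05 against 0.01 over all genes tested.

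Mmp8 was at 750.0, 604, 1118 and 729.6 CPM in untreated and 3142, 2939 and 5405 CPM in treated spleen, 5.87-fold higher with no overlap (log2 2.55 ± 0.29, adjusted p = 0.0028). Lcn2, which is also an acute-phase gene, was at 1184, 1417, 2726 and 1549 CPM against 7378, 2873 and 6405 CPM, 3.93-fold higher with no overlap (log2 1.98 ± 0.39, adjusted p = 0.0172). Mmp9 was at 1907 to 2964 CPM against 4897, 3651 and 4279 CPM, 2.17-fold higher with no overlap (adjusted p = 0.0253). Groups without overlap were found for 26.7% of all genes tested. Mmp8 was called with each library left out. Lcn2 was lost without untreated replicate 4 (adjusted p = 0.0586) or treated replicate 3 (0.0701). Mmp9 was lost without untreated replicate 1 (0.0693), 3 (0.0739) or 4 (0.0877) or treated replicate 3 (0.082). Both were lost with all 8 groups in 1 fit (0.147 and 0.191), at log2 fold changes of 1.93 and 1.07, close to those above.

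The other secondary genes were not called, and the direction of Ltf and Camp turned on 1 library. Ltf was at 23369, 4373 and 2118 CPM in treated spleen against 4068 to 10936 CPM in untreated spleen, Camp at 2590.2, 375 and 162 CPM against 498 to 1129 CPM, and Ngp at 17506, 4422 and 7348 CPM against 3909 to 10274 CPM. Replicate 1 lay above every untreated library for all 3 genes, and for Ltf and Camp replicate 3 lay below all of them. Without replicate 1 the log2 fold changes of Ltf and Camp turned from 0.89 and 0.91 to -0.675 and -0.998 (adjusted p = 0.373 and 0.203). Ngp kept its direction with each library left out and was called without the filter on low counts (log2 0.93, adjusted p = 0.00947). The 7 cell cycle markers, among them Mki67 and Top2a, summed to 633 CPM in replicate 1 and to 66.1 and 38.2 CPM in replicates 2 and 3, against 151 to 454 CPM in untreated spleen, and Cebpe, a factor needed for secondary granule genes, was at 18.9, 20.5 and 114.6 CPM in the treated libraries, from lowest to highest, against 26.3 to 54.9 CPM in untreated spleen. The part of these values in the levels of Ltf and Camp was not tested.

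In tumor PMN-MDSC 0 of 6 genes were called by edgeR (3.36% of 8308 genes called), 2 had an unadjusted p under 0.05, and DESeq2 called 1. Mmp8 was at 13.3, 42.3, 78.7 and 15.7 CPM in untreated and 131, 363, 196 and 1794 CPM in treated tumors, with no overlap (12.1% of genes), 17.4-fold higher on average (log2 4.12 ± 1.12, edgeR adjusted p = 0.112; DESeq2 adjusted p = 0.0016; 0.00818 with all 8 groups in 1 fit). Replicate 4 carried much of that fold, since without it the log2 fold change was 2.52 (edgeR adjusted p = 0.12). Lcn2 was at 18.2, 179, 222 and 21.8 CPM against 256, 1022, 188 and 1826 CPM, 7.64-fold higher on average with an overlap (adjusted p = 0.231). Mmp9 was at 641 ± 194 CPM against 963 ± 293 CPM (SD, n = 4 each; adjusted p = 0.337). Ly6g was at 5.02 to 76.2 CPM in these treated tumors against 0 to 9.19 CPM in untreated tumors. The 8 mature neutrophil markers together summed to 5914 to 13346 CPM against 6750 to 11897 CPM, and 0 of 8 were called by edgeR. The members of this list did not move with the sum. Retnlg averaged 321 CPM in treated against 37.6 CPM in untreated tumors, and S100a9 1618 against 642 CPM. The part of these markers in the values was not tested. Elane had 0 counts in the 4 untreated and 39 in the 4 treated libraries, at least 9.5-fold more, but 35 of the 39 were in replicate 1. Prtn3, also too low to be tested, had 6 to 10 counts in the untreated and 15 to 28 counts in the treated libraries, at 2.40 to 4.74 CPM against 5.12 to 10.5 CPM. Ltf (log2 1.31 ± 1.21), Camp (1.51 ± 1.30) and Ngp (1.47 ± 1.28) had wide errors.

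In splenic M-MDSC 0 of 9 genes were called by edgeR (19.4% of 8827 genes called), 1 had an unadjusted p under 0.05, and DESeq2 called the same gene, Prtn3 (adjusted p = 0.0323). Prtn3 was at 87.6, 34.4, 12.8 and 80.5 CPM in treated and 15.3 to 31.5 CPM in untreated spleen (2.52-fold, edgeR adjusted p = 0.121; 0.0135 without treated replicate 3). Ltf was at 1342, 211, 138 and 1134 CPM in treated spleen against 948 to 2817 CPM, Camp at 367, 62.6, 32.7 and 199 CPM against 253 to 658 CPM and Ngp at 2211, 377, 236 and 2072 CPM against 1432 to 4159 CPM. Treated replicates 2 and 3 were low and replicates 1 and 4 high in all 3 of these genes, in Lcn2 and in Mpo, Elane and Prtn3, and the treated and untreated groups overlapped for all 9 genes (adjusted p 0.191 to 0.818 for the genes other than Prtn3 and Lcn2, and 0.887 for Lcn2). The same replicates 2 and 3 had the lower cell cycle sums, 619 and 524 CPM against 1620.0 and 1969 CPM.

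In tumor M-MDSC 0 of 9 genes were called by edgeR and by DESeq2, and 0 had an unadjusted p under 0.05 (2.88% of 8360 genes called). The smallest adjusted p was that of Lcn2 (0.356), at 138, 2.75 and 136 CPM in treated against 5.50, 37.7, 37.7 and 6.30 CPM in untreated tumors. Leaving out treated replicate 1 gave 1 call, Camp (adjusted p = 0.0475), which then had 0 and 1 counts in the treated libraries and passed the filter only through the untreated ones. The difference between the treatment effects in tumor and in spleen was tested as an interaction and called 0 of 6 genes in PMN-MDSC (3.5% of 8047 genes called) and 0 of 9 in M-MDSC (0.79% of 8730), with a smallest adjusted p of 0.504 and 0.514. No gene of the 10 had an unadjusted p under 0.05 in these edgeR tests (0 in PMN-MDSC, 0 in M-MDSC), and DESeq2 called 0 in either.

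At a stricter threshold (adjusted p under 0.001 with a change of 2-fold or more), 5 of 9 genes were called between the splenic populations of untreated mice (23.2% of genes), 3 of them the primary genes that passed the filter only through the M-MDSC, and 2 of 9 in treated mice (21.2%), with 1 of 7 in untreated tumors (1.65%) and 0 of 8 in treated tumors (0%). Between tumor and spleen, 2 of 6 were called in untreated PMN-MDSC (21.7%), 1 of 6 in treated PMN-MDSC (13%) and 3 of 9 in untreated M-MDSC (8.6%), and treatment gave 0 of 6 in splenic PMN-MDSC (0.0413%).

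**Figure D5:**
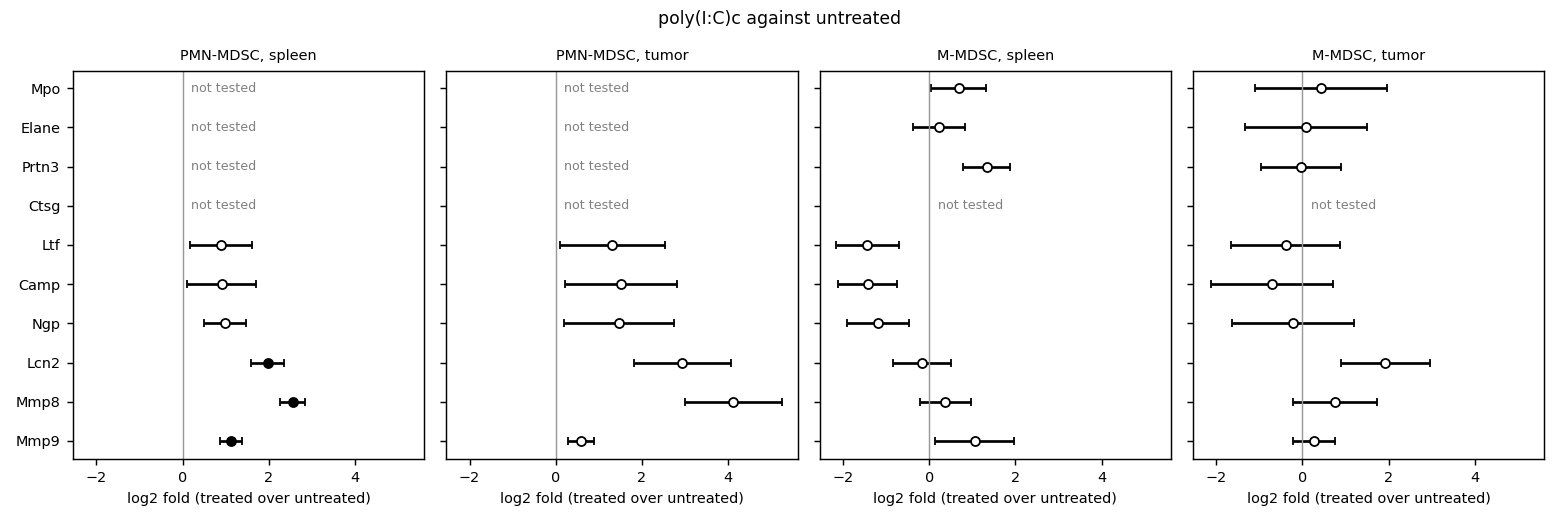
Log2 fold change of poly(I:C)c over untreated for each gene (x axis; bars are standard errors) in PMN-MDSC and M-MDSC of spleen and tumor, with filled points past an adjusted p of 0.05. Lcn2, Mmp8 and Mmp9 in splenic PMN-MDSC are the only filled points of the 4 panels.

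Other genes of the granule program were read from lists, with the same tests. Of 12 further secondary granule genes, 11 were tested between tumor and spleen in untreated PMN-MDSC, and 9 were lower and none higher, with a median log2 fold change of -3.18 (29.7% of all genes lower, 29.4% higher). The largest were Pglyrp1 (a peptidoglycan-binding protein, 18.0-fold lower), Chil3 (a chitinase-like protein, 11.7-fold) and Fcnb (ficolin B, 11.3-fold). In untreated M-MDSC, where 12.7% of all genes were lower and 15.7% higher, 6 of 10 were lower and 1 higher, led by Pglyrp1 (15.4-fold lower) and Fcnb (10.7-fold), while Slpi, a protease inhibitor, was higher (3.24-fold; named after its value was seen). Of 6 further tertiary granule genes, 5 were lower in tumor PMN-MDSC of untreated mice, led by the membrane metalloprotease gene Mmp25 (4.601-fold), and the cathepsin gene Ctsb was 3.10-fold higher. In untreated M-MDSC 4 of 5 were higher in tumor, led by Adam8, a metalloprotease (12.1-fold). Of the further primary granule genes, 3 of 6 were higher and 1 lower in PMN-MDSC, a share called near that of all genes (59.1%), and 4 of 6 were higher and 1 lower in M-MDSC (15.7% and 12.7% of all genes). The genes that were higher, such as Ctsc, which activates the serine proteases (8.88-fold in PMN-MDSC), and Ctsd (3.92-fold in M-MDSC), are lysosomal genes that macrophages are known to express too. The part of macrophages in these folds was not tested. Serpinb1a, an inhibitor of elastase, was 9.74-fold and 6.83-fold lower. The secretory vesicle list ran the other way from the secondary genes. In untreated PMN-MDSC it summed to 937 to 1557 CPM in tumor against 325 to 443 CPM in spleen. In untreated M-MDSC the sums were 774 to 2032 CPM in tumor against 74.4 to 107 CPM in spleen. No test was run on these sums.

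Among 10 regulators of granule genes, Cebpe was 10.1-fold lower in tumor PMN-MDSC (adjusted p = 2.53e-05) and 10.9-fold lower in tumor M-MDSC (adjusted p = 6.35e-05) of untreated mice. Its level was 26.3 to 54.9 CPM in splenic PMN-MDSC and 2.71 to 5.59 CPM in those of tumor. Cebpe, Fcnb and Serpinb1a in both tumor populations, and Pglyrp1 and Myb in tumor M-MDSC, averaged under 25 counts there and were tested through the spleen, where they are high. Klf4, a factor of monocytes, was 6.34-fold higher in tumor PMN-MDSC, and Cebpb, a factor of emergency granulopoiesis and of macrophages, was 3.49-fold higher in tumor M-MDSC. In all, 4 regulators were higher and 3 lower of 8 tested in PMN-MDSC, and 3 higher and 4 lower of 9 in M-MDSC, beside 29.4% higher and 29.7% lower of all genes in PMN-MDSC and 15.7% and 12.7% in M-MDSC. In M-MDSC Myb, a factor of immature cells, was 8.45-fold lower.

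Between the splenic populations of untreated mice, where 30.9% of all genes were higher and 33.4% lower in PMN-MDSC, 5 of 11 tested secondary list genes were higher, led by Slpi (27.7-fold), Olfm4 (8.71-fold) and Pglyrp1 (7.09-fold), but Fcnb (5.10-fold) and Lyz2 (lysozyme, 2.05-fold), named after their values were seen, were lower. Of the 6 tertiary list genes 5 were higher, led by Adam8 (27.5-fold) and Mmp25 (21.6-fold), and all 4 secretory vesicle genes tested were higher, led by the formyl peptide receptor genes Fpr1 (48-fold) and Fpr2 (11-fold). Treatment, which raised 6.1% of all genes in splenic PMN-MDSC, raised 3 of 11 secondary list genes there, Pglyrp1 (2.83-fold), Olfm4 (2.81-fold) and Hp (haptoglobin, 2.40-fold), 1 of 6 tertiary list genes, Mmp25 (2.29-fold), and 3 of 4 secretory vesicle genes, Fpr2 (3.79-fold), Cd14 (3.77-fold) and Fpr1 (3.38-fold). Timp2, an inhibitor of metalloproteases, rose 2.14-fold and Cebpb 2.50-fold, while Klf4 fell from 10.8 to 56.2 CPM in untreated spleen to 0 to 0.742 CPM in treated spleen, where it had 3 counts in all. In splenic M-MDSC, where none of the 9 granule genes was called and 9.96% of all genes were higher and 9.48% lower, treatment raised Fpr1 22.1-fold, Mmp14 (a membrane metalloprotease) 12.3-fold and Fpr2 9.49-fold, and Cebpa (2.84-fold), Cebpd (2.19-fold) and Klf4 (1.98-fold) were lower. Fpr1 averaged under 25 counts in untreated and Olfm4 in treated splenic M-MDSC, and each passed the filter through its higher group. The secondary list gene Olfm4 was 3.78-fold lower there, while Slpi was 3.62-fold and Cyba 1.43-fold higher.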

How the data were processed

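The deposited counts per gene were made by the authors from rRNA-depleted, strand-specific total RNA libraries (SMARTer Pico v2), mapped with ContextMap and BWA to mm10 and counted with featureCounts (Subread 1.4.6-p3) on Gencode genes. Symbols were taken from GENCODE M21 for 53274 of 53379 identifiers. Count columns give a group and a running number, which was not matched to a mouse, so replicate numbers here only name libraries. The 48 pairs of replicates differed beyond sampling noise (chi-square per degree of freedom at least 6.19). Groups were compared with edgeR 4.0.16 in R 4.3.3 (TMM scaling, robust quasi-likelihood F-test, genes with at least 25 counts on average over the libraries fitted, Benjamini-Hochberg adjustment), checked on simulated data, in 14 comparisons that share groups. Standard errors are the fold change divided by the root of F. CPM used library totals, without TMM factors, and FPKM the summed exon length. Alternatives were DESeq2 1.42.0, RLE scaling, no filter, all 8 groups in 1 fit, a stricter threshold (adjusted p under 0.001 and at least 2-fold) and each library left out. The rule for named genes covered all 10 genes in each comparison, and those not called are given in part. Of each further list, up to 3 called genes with the largest change are named, plus any said to be named after its value was seen. The genes and lists were chosen with earlier results of these data known. P-values measure the spread between these samples, and intervals and floors (3 counts) cover counting error only, since reads carried no molecular identifiers. An allele of the tumor line and a gene of the further lists are not reported here.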

Additional observations from a re-analysis of the deposited data

Results flagged for a closer look

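Of 65 sets of 4 libraries with a value above 0, 11 held a library whose gap to its nearest neighbour, as a share of the group's range, was above Dixon's 95% critical value for 4 samples, where chance gives about 1 in 20. Sets in which a single library has any count pass by construction, which holds for Ctsg in PMN-MDSC from treated tumors and Mpo in bulk tumor. In PMN-MDSC from treated tumors, replicate 1 stood out in 3 primary genes, with Mpo at 18.3 CPM (next library 1.02 CPM), Elane at 9.58 CPM (1.37 CPM) and Ctsg at 0.548 CPM (0 CPM). In the same group, replicate 4 stood out in Mmp8 at 1794 CPM (363 CPM). In splenic PMN-MDSC of untreated mice, Camp was at 1129 CPM in replicate 3 (549.7 CPM). In splenic M-MDSC of untreated mice, Mpo was at 106 CPM in replicate 3 (45.7 CPM) and Mmp8 at 120.3 CPM in replicate 2 (40.1 CPM). In M-MDSC from untreated tumors, Ctsg was at 9.44 CPM in replicate 2 (0.555 CPM). In bulk tumor, replicate 2 held Ltf at 4.51 CPM (0.338 CPM) and Ngp at 7.95 CPM (0.343 CPM), and replicate 4 held Mpo at 0.115 CPM (0 CPM).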

How the results depend on the processing

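No paired analysis was possible because no label ties a count column to a mouse when the column order is set aside. The running numbers of the columns follow the order of the sample titles. A pairing by that order could have been fitted but was not run. The comparisons between tumor and spleen and between PMN-MDSC and M-MDSC therefore ignore shared mice, and the effect of this on the calls was not tested. Replicates 1 and 4 were the low ones in the secondary genes of both tumor populations of untreated mice. The number of the 10 genes called changed as follows. In the treatment comparisons, splenic PMN-MDSC had 3 calls, 1 with all 8 groups in 1 fit, 0 at the stricter threshold, 4 without the filter (with Ngp) and 1 to 3 with a library left out. Tumor PMN-MDSC had 0, and 1 with DESeq2, without the filter or with all 8 groups. Splenic M-MDSC had 0, 1 with DESeq2 and 0 to 1 with a library left out, and tumor M-MDSC had 0 and 0 to 1. Between tumor and spleen, the stricter threshold left 2 of 6 in untreated PMN-MDSC, 1 of 6 in treated PMN-MDSC (also 1 without the filter; 5 with DESeq2; 4 to 6 with a library left out) and 3 of 5 in untreated M-MDSC (4 to 6 with a library left out), and leaving out a library gave 0 to 1 in treated M-MDSC. Between PMN-MDSC and M-MDSC, untreated spleen had 9 calls, 5 with all 8 groups or at the stricter threshold and 7 to 9 with a library left out, treated spleen 9, 2 at the stricter threshold, 6 without the filter and 8 to 9 with a library left out, untreated tumor 1, 4 without the filter and 1 to 2 with a library left out, and treated tumor 1, 0 at the stricter threshold and 0 to 1. The interaction in M-MDSC had 0 calls and 2 without the filter (Prtn3 and Lcn2). The cause of these changes was not tested.

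Direction turned only in log2 fold changes that were not called, mostly with a library left out. For treatment, the ranges were -0.68 to 1.29 for Ltf and -0.998 to 1.34 for Camp in splenic PMN-MDSC, and -0.17 to 1.97 for Ltf in tumor PMN-MDSC. In splenic M-MDSC they were -0.27 to 0.59 for Elane, -0.75 to 0.17 for Lcn2 and -0.12 to 1.08 for Mmp8. In tumor M-MDSC they were -2.27 to 0.49 for Prtn3 (0.042 with DESeq2), -0.29 to 0.97 for Elane, -3.35 to 1.20 for Mpo, -3.77 to 0.21 for Ltf, -3.79 to 0.47 for Ngp, -0.13 to 0.89 for Mmp9 and -0.23 to 1.35 for Mmp8. Between tumor and spleen they were -0.30 to 0.23 for Prtn3 (-0.05 with DESeq2, -0.008 with RLE, -0.005 with all 8 groups) and -0.65 to 0.43 for Mmp8 in untreated M-MDSC, and -0.91 to 0.68 for Mmp8 in treated M-MDSC. Between the populations of untreated tumors, Mmp8 ranged from -0.68 to 0.37. For the interaction in PMN-MDSC they were -1.04 to 2.02 for Ltf, -0.69 to 2.54 for Camp and -0.17 to 1.24 for Ngp. For that in M-MDSC they were -0.65 to 0.97 for Mmp8, -4.17 to 0.38 for Mpo, -3.57 to 0.58 for Elane, -2.40 to 1.65 for Ltf, -5.40 to 1.37 for Camp, -2.64 to 1.64 for Ngp and -1.19 to 0.58 for Mmp9. With TMM factors, the mean level in splenic PMN-MDSC of treated mice was 5295 CPM for Mmp8 and 5875 CPM for Mmp9. Depth limits the primary genes in PMN-MDSC, where most libraries held a few counts or none.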
